A study of Homo sapiens with 4 samples.

Results

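Glycolysis splits glucose into pyruvate, and the pentose phosphate pathway branches from its first intermediate to make NADPH and ribose. The 35 genes described here encode the proteins of both pathways together with the carriers of glucose and lactate and the regulators of glycolytic flux. They were found by gene symbol among the 60623 gene rows of the count files, and each symbol matched 1 row. Expression was measured by RNA-seq in BICR10, an established human head and neck cancer cell line. The cells had been transduced with lentivirus carrying a control hairpin (shControl) or a hairpin against YEATS2 (shYEATS2), and each condition had 2 libraries of poly(A) RNA. YEATS2 is a reader of histone acylation and a subunit of a histone acetyltransferase complex. The comparison asks how the transcriptome changes when YEATS2 is silenced. All results come from this 1 cell line, and the sources used here do not say which of the study's YEATS2 hairpins each library carried. The study describes its replicates in general as biological, but nothing says that the 2 libraries of a condition came from separate cultures, so p-values measure only the spread between these libraries, which may be technical.

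In textbook terms, glucose enters through SLC2A family carriers, is trapped by a hexokinase and is committed to glycolysis by phosphofructokinase. The lower part of the pathway, from GAPDH to pyruvate kinase, returns ATP, and lactate dehydrogenase regenerates NAD+ from pyruvate. Pyruvate dehydrogenase kinases inactivate the complex that would send pyruvate into the mitochondria, and a pair of phosphatases reverses this. Several steps have paralogous enzymes, and tumors often run glycolysis to lactate even in the presence of oxygen. Many genes of the pathway are known targets of the hypoxia-inducible factors, whose sites include the core ACGTG, and of MYC, which binds the E-box CACGTG.

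The depth of the libraries was 47297970 and 39824898 counts on genes in shControl and 24072396 and 11334133 in shYEATS2, so shYEATS2 had fewer counts and depth cannot be told apart from the condition. YEATS2 itself had 66.1 and 66.6 CPM (counts scaled to a common library size with TMM factors) in shControl and 29.2 and 29.1 CPM in shYEATS2, a log2 fold change of −1.19 (standard error 0.08). The markers only partly fitted an epithelial label. In shControl, KRT8 was at 263 to 268 CPM, SFN at 130 CPM and KRT18 at 110 and 111 CPM. EPCAM stayed at or below 1.23 CPM and TP63 at or below 0.254 CPM in every library, and TP63 was at 0 in 2 of them. The 10 epithelial markers summed to 580 to 582 CPM in shControl and 319 to 343 CPM in shYEATS2, with 6 of 8 tested markers lower and 1 higher. KRT6A fell the most of them, from 54.9 and 58.1 CPM to 1.38 and 2.20 CPM. CDH1, the higher one, went from 0.352 and 0.317 CPM to 2.84 and 2.12 CPM. Of 9 fibroblast markers, 8 were tested and 7 were lower. The sum of the 9, mostly COL1A1, COL1A2 and COL3A1, was 7204 to 7295 CPM in shControl and 2221 to 2361 CPM in shYEATS2. Of all tested genes, 23.6% were lower and 22.6% higher. The endothelial markers summed to 35.6 to 36.6 CPM in shControl and 18.9 to 20.2 CPM in shYEATS2, nearly all of it KDR, with CDH5 at 0 in 3 libraries. All 5 leukocyte markers were at or below 0.170 CPM. Whether these marker changes had a part in the results that follow was not tested. In such bulk libraries, fewer cells of a type and less RNA per cell cannot be told apart.

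The promoters of 5 members are shown first, because they carry or lack ACGTG, a core that known regulators of this pathway bind. Other forms of this core were not searched. The windows run from 250 bases before to 50 bases after the RefSeq start of the gene in GRCh38.p14, and 32 of the 35 genes had one; SLC2A3, SLC16A1 and PFKFB2 were not in the table. Each is written 5′ to 3′ on the strand of its gene, with ACGTG or its reverse complement CACGT in capitals, and CACGTG where they overlap. LDHA, lactate dehydrogenase A, and PGK1, phosphoglycerate kinase, each had 3 capital stretches and were lower in shYEATS2. ALDOC, the brain-type aldolase, had 2 and was lower, and HK2, the inducible hexokinase, also had 2 but was higher. PGAM1, phosphoglycerate mutase, had none and was lower by the most among the members with a mean of at least 10 CPM. The windows are chr11:18394313-18394612 (plus strand) for LDHA, chrX:78103998-78104297 (plus) for PGK1, chr17:28576846-28577145 (minus) for ALDOC, chr2:74833877-74834176 (plus) for HK2 and chr10:97427568-97427867 (plus) for PGAM1. The starts used for PGAM1 and PGK1 lie well inside the genes as GENCODE annotates them, and that of ALDOC slightly inside.
LDHA: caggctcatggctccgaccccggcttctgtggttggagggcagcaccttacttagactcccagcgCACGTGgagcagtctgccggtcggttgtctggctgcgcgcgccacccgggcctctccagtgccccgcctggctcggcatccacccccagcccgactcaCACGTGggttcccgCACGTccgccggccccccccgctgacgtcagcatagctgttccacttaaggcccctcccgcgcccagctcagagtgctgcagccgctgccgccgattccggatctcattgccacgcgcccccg
PGK1: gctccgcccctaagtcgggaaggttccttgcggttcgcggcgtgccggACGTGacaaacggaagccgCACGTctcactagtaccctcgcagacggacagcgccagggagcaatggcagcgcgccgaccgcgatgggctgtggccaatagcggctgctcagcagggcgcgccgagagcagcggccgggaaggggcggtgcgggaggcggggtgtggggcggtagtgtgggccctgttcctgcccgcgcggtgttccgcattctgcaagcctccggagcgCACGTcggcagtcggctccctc
ALDOC: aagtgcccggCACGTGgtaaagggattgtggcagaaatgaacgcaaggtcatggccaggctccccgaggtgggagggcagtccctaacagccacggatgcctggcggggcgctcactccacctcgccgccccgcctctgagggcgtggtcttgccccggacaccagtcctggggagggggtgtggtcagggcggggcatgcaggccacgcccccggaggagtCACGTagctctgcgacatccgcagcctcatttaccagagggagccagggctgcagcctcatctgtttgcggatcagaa
HK2: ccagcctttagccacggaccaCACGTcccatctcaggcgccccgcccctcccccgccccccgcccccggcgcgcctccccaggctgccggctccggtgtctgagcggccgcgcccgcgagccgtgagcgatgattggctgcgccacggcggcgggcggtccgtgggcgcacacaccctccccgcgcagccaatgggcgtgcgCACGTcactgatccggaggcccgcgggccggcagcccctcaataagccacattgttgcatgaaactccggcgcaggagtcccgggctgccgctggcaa
PGAM1: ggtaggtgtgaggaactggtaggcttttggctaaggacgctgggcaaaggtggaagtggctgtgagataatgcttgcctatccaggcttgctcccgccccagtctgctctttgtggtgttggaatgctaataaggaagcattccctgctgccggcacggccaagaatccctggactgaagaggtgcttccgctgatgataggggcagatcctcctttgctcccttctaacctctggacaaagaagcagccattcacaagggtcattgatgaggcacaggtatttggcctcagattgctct

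ACGTG on either strand, which includes every E-box CACGTG, was present in 11 of the 32 member promoters (34.4%). The same letters were in 26.4% of the 11002 promoters of tested genes and in 21.4% of all 35116 promoters. The 17058 tested genes had only these 11002 windows, matched by symbol, so the rest are not in this background. Among the members, the share was 8 of 19 (42.1%) for those lower in shYEATS2, 1 of 4 for those higher and 2 of 9 (22.2%) for those not called or not tested. The E-box was in 3 member promoters (9.38%), those of LDHA, GAPDH and ALDOC, against 9.87% of the promoters of tested genes. The GC box GGGCGG, the core of SP1 sites, on either strand was in 26 of 32 (81.2%), against 68.5% of the promoters of tested genes, and in 13 of the 19 lower and all 4 higher members with a window. These matches are descriptions of the letters in the window and not of binding. The starts used for several further members, GPI, PFKFB4, SLC16A3 and LDHB among them, also lie well inside the genes as GENCODE annotates them.

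Most of the called members were lower in shYEATS2. Together the members took up 2.21% and 2.20% of all counts in shControl and 1.88% and 1.76% in shYEATS2. PDK4 had 0, 2, 0 and 3 counts, in the order shControl 1 and 2 and shYEATS2 1 and 2, and did not pass the filter on low counts, which left 34 members. Of these, 19 were lower, 6 were higher and 9 were not called at an adjusted p under 0.05 (edgeR's quasi-likelihood test, Benjamini-Hochberg over all 17058 tested genes). Across all tested genes 23.6% were lower and 22.6% higher, 46.2% in all. For 21 members the higher shYEATS2 library was still below the lower shControl library, for 8 members shYEATS2 lay wholly above, and for 5 members the conditions overlapped, while over all genes 36.3% lay below and 35.3% above. The median log2 fold change of the 34 members was −0.26 (quartiles −0.56 and 0.03) and that of all tested genes −0.01. Taking 1 library of each condition at a time, the median of the members lay between −0.34 and −0.19. With library totals alone in place of TMM, the median of all genes moved to 0.13 and that of the members to −0.13, with 14 members lower and 8 higher, against 2571 genes lower and 5441 higher over all genes (4019 and 3858 with TMM). HK1, SLC16A3, PDK2, PFKFB4 and TKT were then not called, with log2 fold changes of −0.26 to −0.11, and PFKM and PFKFB3 were called higher at 0.19 and 0.23.

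**Figure D1:**
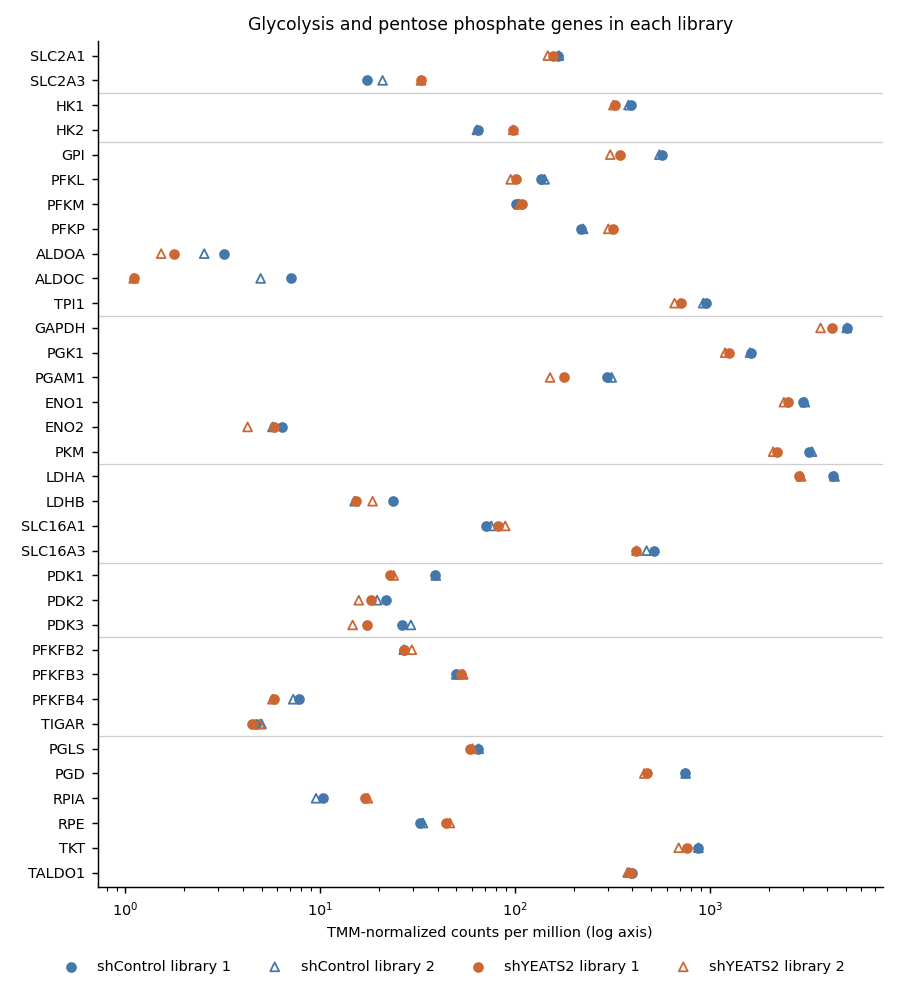
TMM-normalized CPM of the 34 tested members in each library on a log axis, with shControl in blue and shYEATS2 in orange, library 1 as filled circles and library 2 as open triangles, and grey lines between role groups. Orange lies to the left of blue for 21 members, LDHA, PGK1, PGAM1 and PGD among them, and to the right for 8, HK2, PFKP and RPIA among them.

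The members were also read by abundance, with no test of the difference between the classes. Of the 17 members with a mean of at least 100 CPM, 13 were lower and 1, PFKP, was higher, with a median log2 fold change of −0.35. Among the 2086 tested genes of that abundance, 42.5% were lower and 24.4% higher, with a median of −0.09. The other 17 tested members, all under 100 CPM, had 6 lower and 5 higher, with a median of −0.12. Among the 14972 tested genes under 100 CPM, 20.9% were lower and 22.4% higher, with a median of 0.01. The 5 members above 1000 CPM, GAPDH, LDHA, PKM, ENO1 and PGK1, held 73.1% to 75.1% of the counts of all members in each library, and all were lower. On a per-length scale (CPM per kilobase of exon), GAPDH was at 2107 in shControl, LDHA at 716, ENO1 at 582, PKM at 383, TPI1 at 349 and PGK1 at 297. The members of the pentose phosphate pathway followed with PGD at 224 and TALDO1 at 135 on the same scale.

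**Figure D2:**
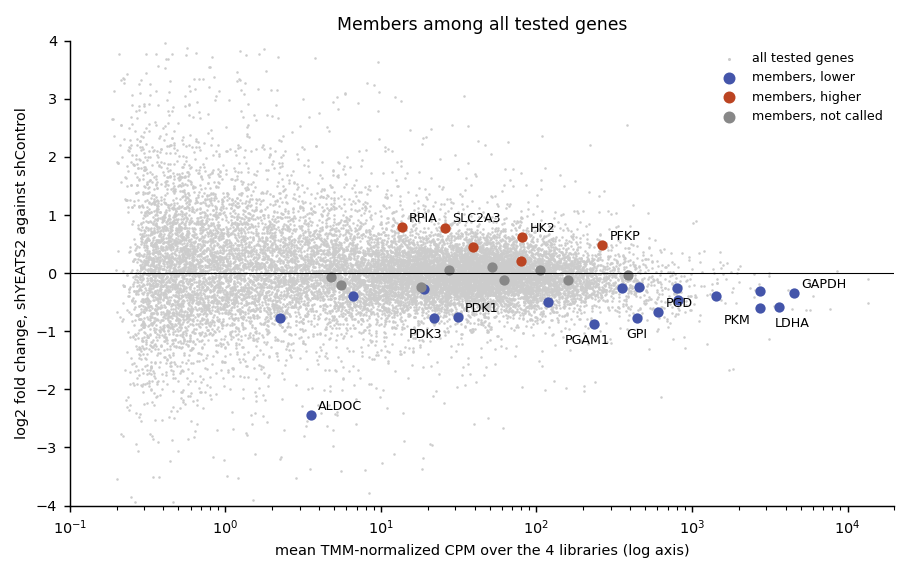
Log2 fold change of shYEATS2 against shControl by mean CPM (log axis) for all tested genes (small grey points, 62 of them outside the axes), with the members as large points, blue for lower, red for higher and dark grey for not called. The 5 members above 1000 CPM are all blue, and the red points, RPIA, SLC2A3, HK2 and PFKP among the labelled ones, lie below that level.

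At the entry of glucose into the cell, 1 of the 2 transporters rose. SLC2A1 (GLUT1), the main carrier of most tumor cells, had 165 and 168 CPM in shControl and 157 and 147 CPM in shYEATS2. Its shYEATS2 libraries were both the lower ones, but the change did not pass the test (log2 fold change −0.13, 95% interval −0.25 to −0.0024, adjusted p = 0.0893 by edgeR). Without the first shYEATS2 library it was called lower (−0.19). SLC2A3 (GLUT3), a high-affinity carrier, had 17.4 and 20.9 CPM in shControl and 32.8 and 32.9 CPM in shYEATS2, so the conditions did not overlap. It rose by 0.78 on the log2 scale (standard error 0.09, adjusted p = 9.34e-11, edgeR). Reads of SLC2A3 can be shared with its near-identical paralog SLC2A14, so its value is uncertain to that extent. Per length, SLC2A3 made up 8.75% and 10.2% of the summed counts of both carriers in shControl and 16.0% and 16.9% in shYEATS2.

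The hexokinases moved in opposite directions. HK1, the constitutive form, had 392 and 382 CPM in shControl and 326 and 320 CPM in shYEATS2, a log2 fold change of −0.26 (standard error 0.06). HK2, the form that many tumors induce, had 64.2 and 63.7 CPM in shControl and 97.9 to 98.0 CPM in shYEATS2, with almost no spread within a condition. Its log2 fold change was 0.62 (standard error 0.07, adjusted p = 3.74e-12, edgeR). Of the summed counts of HK1 and HK2 per length, HK2 thus went from 16.0% and 16.2% in shControl to 25.9% and 26.2% in shYEATS2. HKDC1, a further hexokinase that is not among the 35 genes, also rose, from 12.6 and 14.1 CPM to 30.2 and 32.5 CPM, a log2 fold change of 1.23. ADPGK, which phosphorylates glucose with ADP, fell by 0.36 on the log2 scale.

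In the upper part of glycolysis, 5 of the 7 members were lower and 1 was higher. The shares over all tested genes were 23.6% lower and 22.6% higher. For the more abundant genes (100 CPM or more on average) they were 42.5% and 24.4%. Among the 5 lower members, ALDOA and ALDOC rested on few counts, and the ALDOA call was lost under some settings. GPI, which turns glucose-6-phosphate into fructose-6-phosphate, had 566 and 551 CPM in shControl and 347 and 308 CPM in shYEATS2. It fell by 0.77 on the log2 scale (standard error 0.06, adjusted p = 1.40e-17, edgeR), to 58.8% of the shControl mean. The gene partly overlaps AC092073.1 on the same strand, over 13.1% of its canonical transcript. TPI1, triose phosphate isomerase, had 958 and 925 CPM in shControl and 709 and 659 CPM in shYEATS2, a log2 fold change of −0.46.

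Of the 3 phosphofructokinase subunits, which form the committing enzyme of glycolysis, 1 fell, 1 rose and 1 was not called. PFKL, the liver-type subunit, had 137 and 142 CPM in shControl and 101 and 94.9 CPM in shYEATS2 (log2 fold change −0.50, standard error 0.06). PFKP, the platelet-type subunit, had 218 and 224 CPM in shControl and 316 and 301 CPM in shYEATS2 (log2 fold change 0.49, standard error 0.06). PFKM, the muscle-type subunit, stayed between 101 and 108 CPM in all 4 libraries, with a log2 fold change of 0.05 (95% interval −0.07 to 0.18). Per length, PFKP went from 48.7% and 48.9% of the phosphofructokinase counts in shControl to 60.6% and 60.8% in shYEATS2, and PFKL from 26.7% and 26.9% to 16.9% and 16.6%. In each of these shares the libraries of a condition lay close together and the conditions did not overlap. Such a share, 2 libraries against 2, cannot reach an exact two-sided permutation p below 0.333.

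**Figure D3:**
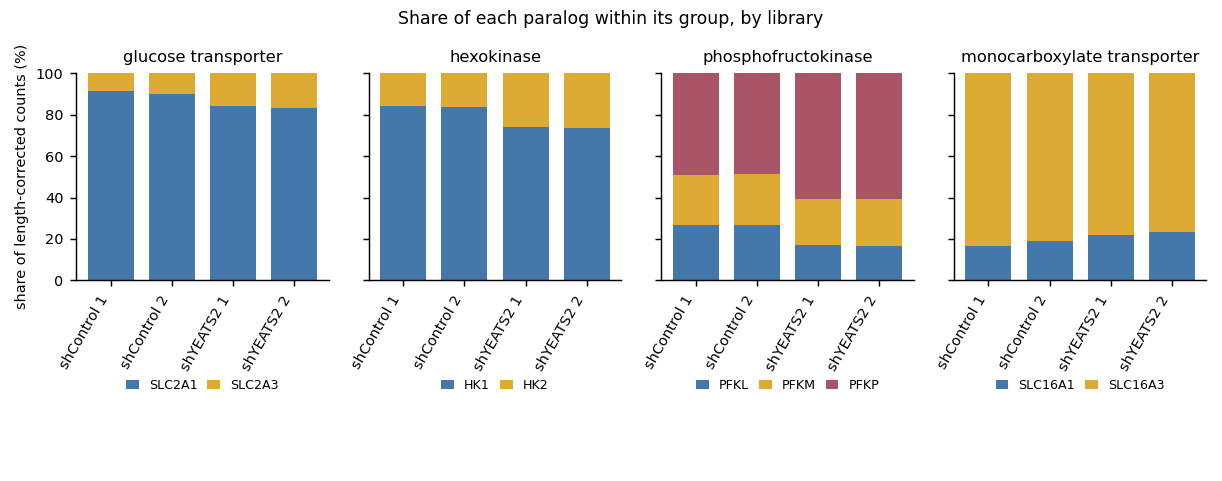
Share (%) of each paralog in the length-corrected counts of its group, 1 stacked bar per library from 0 to 100%. The groups are the glucose transporters, hexokinases, phosphofructokinases and monocarboxylate transporters among the members. The HK2 part grows from a mean of 16.1% in the shControl bars to 26.1% in the shYEATS2 bars, and the PFKP part from 48.8% to 60.7%.

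The aldolases had few counts. ALDOC had 7.05 and 4.94 CPM in shControl and 1.10 CPM in both shYEATS2 libraries, which rested on 320, 187, 28 and 13 counts. Its log2 fold change of −2.45 (standard error 0.24, adjusted p = 1.62e-13, edgeR) was the largest in size among the tested members. ALDOA, the main aldolase of most cells, was counted at only 3.19 and 2.54 CPM in shControl and 1.77 and 1.53 CPM in shYEATS2 (log2 fold change −0.77, adjusted p = 0.00926, edgeR). In GENCODE release 44, AC093512.2 covers 89.8% of the canonical ALDOA transcript on the same strand, and the files tally read pairs on more than 1 gene apart from both genes. The ALDOA values therefore describe only the read pairs credited to ALDOA alone, and no share within the aldolases is given. The ALDOA call was lost without the first shControl library (log2 fold change −0.60) and with DESeq2.

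All members of lower glycolysis other than ENO2 fell. Of all tested genes 23.6% were lower, and 42.5% of those with a mean of at least 100 CPM. PGAM1 had 295 and 313 CPM in shControl and 178 and 151 CPM in shYEATS2. It fell by 0.88 on the log2 scale (standard error 0.06, adjusted p = 2.65e-17, edgeR), to 54.3% of the shControl mean, with no overlap between conditions. PKM, pyruvate kinase, the last ATP-yielding step, had 3228 and 3342 CPM in shControl and 2221 and 2114 CPM in shYEATS2, a log2 fold change of −0.60 (standard error 0.06). GAPDH, often used as a reference gene, was not constant here, with 5049 and 5046 CPM in shControl and 4230 and 3699 CPM in shYEATS2 (log2 fold change −0.35, adjusted p = 3.50e-06, edgeR). With library totals alone in place of TMM, its log2 fold change was −0.21. PGK1 had 1625 and 1608 CPM in shControl and 1256 and 1198 CPM in shYEATS2, and ENO1, the main enolase, had 2999 and 3075 CPM in shControl and 2520 and 2398 CPM in shYEATS2. Their log2 fold changes were −0.40 and −0.30. ENO2, the neuronal enolase, was at 4.24 to 6.34 CPM with overlapping conditions (log2 fold change −0.21, 95% interval −0.54 to 0.12). Pseudogene rows of these genes held few counts, at most 0.561% of the counts of their parent in any library. Among them were the 62 pseudogene rows of GAPDH. Read pairs without a unique alignment were tallied apart, so pairs shared by a parent and its pseudogene may be in neither count.

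The transcripts for lactate production and export changed unevenly. LDHA had 4264 and 4365 CPM in shControl and 2851 and 2938 CPM in shYEATS2, a log2 fold change of −0.58 (standard error 0.06, adjusted p = 8.18e-13, edgeR), and stood second among the members per length. LDHB, the subunit that favors lactate oxidation, had 23.7 and 15.0 CPM in shControl and 15.2 and 18.6 CPM in shYEATS2, so the conditions overlapped and no change could be read. AC010197.2 overlaps 76.5% of its canonical transcript on the same strand, so its level is not that of the whole gene. With each library left out in turn, the log2 fold change of LDHB ranged from −0.52 (without the second shControl library) to 0.14. SLC16A3 (MCT4), the exporter typical of glycolytic cells, had 515 and 473 CPM in shControl and 417 and 420 CPM in shYEATS2 (log2 fold change −0.24). SLC16A1 (MCT1), which carries lactate either way, had 71.0 and 75.4 CPM in shControl and 81.5 and 89.0 CPM in shYEATS2 (log2 fold change 0.21, adjusted p = 0.00746, edgeR). Without the first shControl library neither of these 2 carriers passed the test, at −0.18 for SLC16A3 and 0.17 for SLC16A1 on the log2 scale. BSG (basigin), the chaperone that both carriers need at the membrane, fell from 1096 and 1086 CPM to 795 and 695 CPM, a log2 fold change of −0.55.

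**Figure D4:**
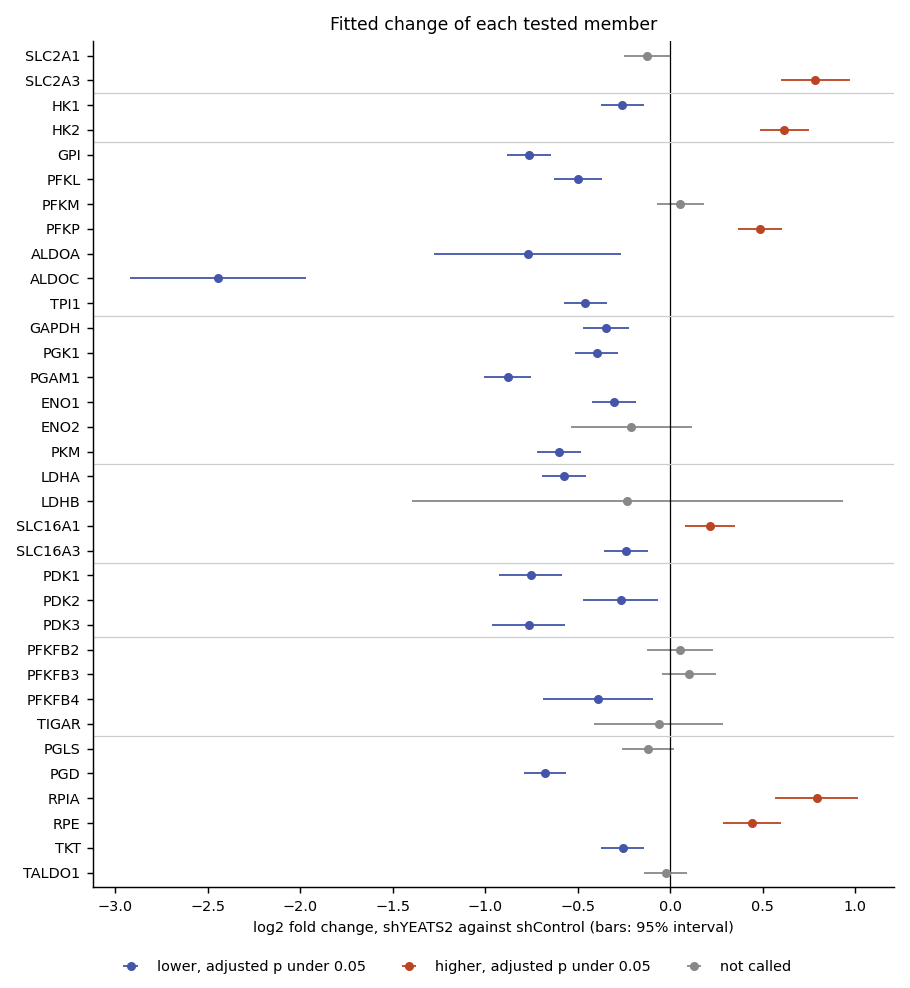
Fitted log2 fold change of shYEATS2 against shControl for the 34 tested members (points) with 95% intervals from edgeR (bars), blue for lower, red for higher and grey for not called, with grey lines between role groups. The points of lower glycolysis all lie left of 0, down to −0.88 for PGAM1, while the red points, up to 0.79 for RPIA, are spread over 5 role groups.

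All 3 tested pyruvate dehydrogenase kinases, which hold pyruvate back from the mitochondria, were lower, against 23.6% of all tested genes. PDK1, the hypoxia-induced kinase, had 39.0 and 39.2 CPM in shControl and 22.7 and 23.8 CPM in shYEATS2 (log2 fold change −0.76, standard error 0.09). PDK3 had 26.3 and 29.2 CPM in shControl and 17.4 and 14.7 CPM in shYEATS2 (log2 fold change −0.77, standard error 0.10). These are 59.2% and 58.8% of the shControl means of PDK1 and PDK3. PDK2 had 21.8 and 19.6 CPM in shControl and 18.2 and 15.8 CPM in shYEATS2, and its smaller change (log2 fold change −0.27, adjusted p = 0.0253, edgeR) did not pass the test without the first shControl library (−0.20) or the second shYEATS2 library (−0.19). SAMD14 overlaps PDK2 on the opposite strand over 62.8% of its canonical transcript. The strand setting of the counting is not given, so read pairs on the overlap may have been tallied apart from both genes. The same limit holds for GAPDH (AC006064.4 over 32.8% of its canonical transcript), PGLS (23.9%), SLC16A3 (CSNK1D, 18.5%) and ALDOC (18.2%).

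The opposing phosphatases, from the list of genes for pyruvate entry into mitochondria, were higher. PDP1 had 28.5 and 31.4 CPM in shControl and 72.1 and 75.9 CPM in shYEATS2, a log2 fold change of 1.30 (standard error 0.08, adjusted p = 6.67e-24, edgeR). PDP2 had 39.7 and 40.3 CPM in shControl and 57.3 and 55.6 CPM in shYEATS2 (log2 fold change 0.50). The summed kinase level per length was 0.818 and 0.753 times the summed phosphatase level in shControl and 0.295 and 0.265 times in shYEATS2. The phosphatases were set against the kinases after their values were seen, so this ratio is a description. Its level depends on the length used, here the union of exons. For PDK3 that union is 17456 bases, against 1741 in the canonical transcript. Of all 11 genes of that list 5 were lower and 3 higher, against 23.6% and 22.6% of all tested genes. The subunits PDHA1, DLAT and DLD of the dehydrogenase complex had log2 fold changes of −0.34, −0.33 and −0.22, and all were lower. PDHB and PDHX, of the same complex, were not called, with log2 fold changes of 0.02 (95% interval −0.13 to 0.17) and 0.02 (−0.14 to 0.18). PC, pyruvate carboxylase, fell by 0.51 on the log2 scale. MPC2 and MPC1, the partners that carry pyruvate across the inner membrane, had log2 fold changes of −0.46 and 0.19. The call of MPC1 was lost without either shControl library (0.13 and 0.23) and that of DLD without the second (−0.17).

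**Figure D5:**
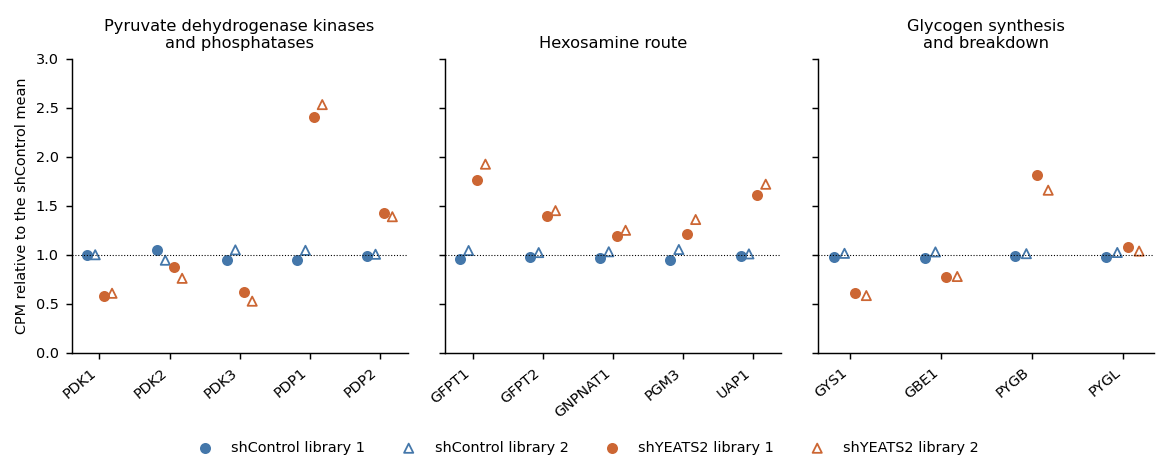
CPM of each library relative to the mean of the shControl libraries (dotted line at 1) for pyruvate dehydrogenase kinases and phosphatases, the hexosamine route, and glycogen synthesis and breakdown, with symbols as for the members by library. PDK1 and PDK3 lie below 1 and PDP1 and PDP2 above it in both shYEATS2 libraries, and all 5 genes of the hexosamine route lie above 1.

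The regulators of fructose-2,6-bisphosphate, the allosteric activator of phosphofructokinase, changed little. PFKFB3, the most abundant of them per length, had 49.5 and 49.9 CPM in shControl and 52.5 and 54.2 CPM in shYEATS2 (log2 fold change 0.10, 95% interval −0.05 to 0.25). PFKFB2 was at 26.9 to 29.5 CPM and TIGAR, a phosphatase that lowers this activator, at 4.46 to 5.00 CPM, with overlapping conditions for both. AC008012.1 overlaps TIGAR on the same strand over 20.8% of its canonical transcript. The log2 fold changes of PFKFB2 and TIGAR were 0.05 (95% interval −0.12 to 0.23) and −0.06 (−0.41 to 0.29). PFKFB4 had 7.80 and 7.27 CPM in shControl and 5.80 and 5.68 CPM in shYEATS2 (log2 fold change −0.39, adjusted p = 0.0268, edgeR). That call was lost when any 1 of the 4 libraries was left out (log2 fold changes −0.45 to −0.34).

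In the pentose phosphate pathway, 2 of 6 members were lower and 2 higher, not far from the 23.6% and 22.6% of all tested genes. PGD, the second NADPH-yielding dehydrogenase, had 744 and 751 CPM in shControl and 474 and 461 CPM in shYEATS2. It fell by 0.68 on the log2 scale (standard error 0.06, adjusted p = 4.31e-16, edgeR), to 62.6% of the shControl mean. Both enzymes that work on ribulose-5-phosphate rose. RPIA, the isomerase that makes ribose-5-phosphate, had 10.4 and 9.52 CPM in shControl and 17.0 and 17.5 CPM in shYEATS2 (log2 fold change 0.79, standard error 0.11, adjusted p = 1.31e-08, edgeR). RPE, the epimerase, had 32.6 and 33.7 CPM in shControl and 44.0 and 46.3 CPM in shYEATS2 (log2 fold change 0.44, standard error 0.08), and KANSL1L overlaps it on the opposite strand over 26.4% of its canonical transcript.

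Of the enzymes that link the pentose phosphates back to glycolysis, TKT, transketolase, had 866 and 873 CPM in shControl and 762 and 691 CPM in shYEATS2 (log2 fold change −0.26). TALDO1, transaldolase, had 398 and 386 CPM in shControl and 392 and 378 CPM in shYEATS2, and its log2 fold change of −0.02 had a 95% interval of −0.14 to 0.09. PGLS, the lactonase, had 64.7 and 65.0 CPM in shControl and 59.0 and 60.5 CPM in shYEATS2 and did not pass the test (log2 fold change −0.12, 95% interval −0.26 to 0.02). The members of this pathway thus ranged from −0.68 to 0.79 on the log2 scale.

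Around these pathways, 102 genes in 6 further lists were read from the same fit, and 84 were tested. Of these, 34 were lower and 26 higher, with a median log2 fold change of −0.14, against 23.6% lower and 22.6% higher over all tested genes. The same background holds for each list. Among 14 tested genes of the other isoforms, 4 were lower and 3 higher. The 26 genes of the hexose phosphate side branches, all tested, had 11 lower and 10 higher with a median of 0.04, close to that of all genes. The hexosamine route, which makes UDP-GlcNAc for glycosylation, was grouped after its values were seen. GFPT1, its first enzyme, had 128 and 140 CPM in shControl and 237 and 259 CPM in shYEATS2 (log2 fold change 0.88, standard error 0.06). UAP1, its last enzyme, rose by 0.74 on the log2 scale, and GFPT2, PGM3 and GNPNAT1 had log2 fold changes of 0.51, 0.36 and 0.28. All 5 were called higher, although the call of GNPNAT1 was lost without the first shControl library (0.23).

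The glycogen genes, also grouped after their values were seen, were divided. GYS1, glycogen synthase, had 80.3 and 83.0 CPM in shControl and 50.2 and 47.8 CPM in shYEATS2 (log2 fold change −0.73). GBE1, the branching enzyme, fell by 0.36 on the log2 scale. PYGB, the brain-type phosphorylase that releases glucose-1-phosphate, had 234 and 240 CPM in shControl and 431 and 393 CPM in shYEATS2 (log2 fold change 0.80). PYGL, the liver-type phosphorylase, had a log2 fold change of 0.09 (95% interval −0.06 to 0.24) and was not called. In the gluconeogenesis list only PCK2 and G6PC3 passed the filter on low counts. PCK2, the mitochondrial form of PEP carboxykinase, had 10.04 and 10.6 CPM in shControl and 28.3 and 28.1 CPM in shYEATS2 (log2 fold change 1.45), and G6PC3 fell by 0.20 on the log2 scale, a call lost without the second shControl library (−0.15) or the second shYEATS2 library (−0.13).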

How the data were processed

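RNA-seq libraries of shControl and shYEATS2 BICR10 cells, 2 per condition, were analysed. The authors made stranded poly(A) libraries, aligned read pairs to GRCh38 with STAR, counted them per Ensembl gene with HTSeq and deposited whole-number counts without normalization. Apart from the HTSeq version, tool versions, annotation release and strand setting are not given in the sources used here. Tallies of read pairs on no single gene (15.3% to 16.5% of the tallied pairs) were left out of library sizes.

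Groups and replicate numbers came from the sample titles. Genes kept by filterByExpr (17058 of 60623) were scaled by TMM (factors 0.960, 0.950, 1.05 and 1.04) and tested with edgeR 4.0.16 (glmQLFit, robust, and glmQLFTest) in R 4.3.3, with condition as the only term, Benjamini-Hochberg adjustment over all tested genes and a threshold of 0.05 with no minimum fold change. Standard errors were derived from the fold change and its F statistic. The method was checked on simulated data. No 2 libraries were identical, and replicates differed by more than counting noise (chi-square per degree of freedom 5.95 and 5.39 in shControl and shYEATS2). CPM are TMM-normalized. Exon lengths, positions and overlaps came from GENCODE release 44 (60295 gene rows matched), promoters from RefSeq GRCh38.p14. Paralog shares used counts per length of the union of exons. With 2 libraries per condition, no test for outlying libraries was possible.

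The members and lists were chosen with earlier results of these data known, so they give no independent support. Named in full are called members whose conditions did not overlap and whose mean reached 10 CPM, the 8 with the largest absolute log2 fold change in each direction, and the 3 such genes of each related list; other members are given by role. Genes outside this rule were chosen after their values were seen. Alternatives were DESeq2 1.42.0 size factors or test, library totals, upper quartiles, limma-voom (limma 3.58.1), other filters, a replicate block, counts thinned to 11334133, an adjusted p under 0.01 and each library left out, and, added after seeing the data, canonical transcript length for the shares. One gene of the related lists is counted in its list and not reported here by itself.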

Additional observations from a re-analysis of the deposited data

How the results depend on the processing

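Library totals alone in place of TMM gave the widest shift: 2571 genes were lower over all tested genes (4019 with TMM), and the median log2 fold change of the members was −0.13 (−0.26 with TMM). Of the members, 5 were then no longer called and 2 were newly called higher. With each library left out in turn, the median of the members ranged from −0.35 (without shYEATS2 library 1) to −0.22, with 15 to 19 members lower and 5 or 6 higher. Over all genes these settings gave 3062 to 4048 lower and 2604 to 3671 higher. Such fits leave 1 library in a condition, which is assumed to vary like those of the other. DESeq2 called 16 members lower and 6 higher, losing ALDOA, PDK2 and PFKFB4, with 2949 lower and 2820 higher over all genes. An adjusted p under 0.01 gave 17 and 6, with 3204 and 2967 over all genes. Thinning every library to the smallest total left 18 lower and 6 higher, and lost ALDOA, with 3256 and 3195 over all genes. Without a filter on low counts there were 20 lower and 5 higher, with 4338 and 3074 of 33310 genes over all. DESeq2 size factors, upper quartiles, limma-voom and at least 10 counts in every library gave 19 and 6 each. Over all genes these gave 3757 to 3950 lower and 3569 to 3923 higher. No called member or related gene changed direction under any of these settings. The replicate numbers share only a number: the differences between libraries 1 and 2 in the 2 conditions had a correlation of −0.02 across genes. With the replicate block, 20 members were lower and 6 higher, SLC2A1 being added, and over all genes 4142 were lower and 3871 higher, with a member median of −0.26 and −1.19 for YEATS2. With canonical transcript lengths, the mean share of HK2 went from 9.57% to 16.3% and that of PFKP from 50.9% to 63.3%, while the order of the PDK genes depended on the length used, so no PDK share is given. The lowest depth, 11334133 counts, limits the precision for ALDOA, ALDOC, ENO2, PDK4, PFKFB4 and TIGAR, all with a mean under 10 CPM.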

Other observations

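The transcription factors that are known to act on these genes were divided. Of 11 genes for glucose sensing and transcription, 2 were lower and 4 higher, against 23.6% and 22.6% of all tested genes. MYC had 70.3 CPM in both shControl libraries and 159 and 133 CPM in the shYEATS2 libraries, a log2 fold change of 1.06 (standard error 0.07). HIF1A, the oxygen-regulated subunit of the hypoxia-inducible factor, was at 598 to 653 CPM with overlapping conditions (log2 fold change 0.05, 95% interval −0.07 to 0.16). EPAS1, the HIF-2α subunit, had 186 and 190 CPM in shControl and 218 and 211 CPM in shYEATS2 and was called higher (log2 fold change 0.19). That call was lost without either shControl library (0.17 and 0.20) and with no filter on low counts (0.14). ARNT, the shared partner, had 56.2 and 58.8 CPM in shControl and 37.9 and 39.5 CPM in shYEATS2, a log2 fold change of −0.58. TXNIP, a glucose-induced inhibitor of glucose uptake, had a log2 fold change of 0.31 and was called higher, but not without the first shControl library (0.24).

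Of 20 genes of the hypoxia response that lie outside glycolysis, 11 were lower and 5 higher, against 23.6% and 22.6% of all tested genes, with a median log2 fold change of −0.22. CA9, a carbonic anhydrase used as a hypoxia marker, had 18.4 and 19.7 CPM in shControl and 7.93 and 6.78 CPM in shYEATS2 (log2 fold change −1.34, standard error 0.12). P4HA2, a collagen prolyl hydroxylase, had 265 and 269 CPM in shControl and 149 and 133 CPM in shYEATS2 (log2 fold change −0.91). STC1, a secreted glycoprotein, rose from 21.8 and 22.5 CPM to 43.7 and 38.3 CPM (log2 fold change 0.90). The counts describe the list and were not tested as a set.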
